A study of Mus musculus with 14 samples.

Results

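Collagen chain genes were examined in bulk RNA-seq of 14 female mouse hearts. A gene was included when its symbol had the form of a collagen chain (Col, a number, a, a number) and its raw CPM (counts relative to the total of the library) exceeded 1 in at least 1 library. The tables listed 44 such genes among 42396 genes, and 30 met the rule. All 30 were tested in the knockout comparison and 29 in the AAV comparison, where Col11a1 stayed below the filter. The remaining 14 were Col2a1, Col11a2, Col24a1, Col4a6, Col6a4, Col6a5, Col9a1, Col9a3, Col19a1, Col10a1, Col7a1, Col17a1, Col25a1 and Col26a1. Nearest to the limit were Col22a1 (highest library 1.43 raw CPM), Col9a2 (1.44) and Col11a1 (1.59) inside it, and Col4a6 (0.987), Col26a1 (0.919) and Col25a1 (0.769) outside it.

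All mice were FS6KD, with a gene-trap knockdown of Ndufs6, a subunit of respiratory complex I, that acts mainly in the heart on a mixed C57BL/6J and 129/Ola background. The knockout experiment compared 4 Atf3+/+FS6KD with 4 Atf3-/-FS6KD hearts at 12 weeks, and Atf3, a stress-induced transcription factor, had been deleted from exon 2 to exon 4 by CRISPR-Cas9 in fertilized eggs, so that all cell types lack it. The AAV experiment compared 3 hearts labelled MyoAAV2-shCtrl with 3 labelled MyoAAV2-shAtf3. MyoAAV2 is a muscle-directed virus, given to neonates, that carried a short hairpin RNA against Atf3 or a control, and the age at collection was not given in the sources used here. Column names of the AAV table read opposite to the labels, so every direction there is conditional on the labels. Separate hearts are samples of a group, but no source used here says whether littermates were used.

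Total counts ranged from 30085432 to 134920825, and replicates 3 and 4 of both genotypes were the deepest. Atf3 was at 25.7, 6.89, 6.9 and 6.35 CPM in Atf3+/+FS6KD and at 25.5, 37.6, 22.7 and 14.3 CPM in Atf3-/-FS6KD. It was at 10.1, 13.2 and 14.1 CPM in labelled shCtrl and at 21.2, 12.1 and 16.5 CPM in labelled shAtf3, so it was lower in neither the knockout nor the labelled shAtf3 group. Exons outside the deletion still count towards Atf3, so the knockout value does not test the deletion. Ndufs6 was at 2.33 to 3.79 CPM in the 14 libraries. Atf3-/-FS6KD replicate 1, labelled female, held 12 counts of Xist, the RNA of the inactive X chromosome, against 4454 to 20382 in the other 13 libraries, and no count of 3 Y-linked genes. Knockout call counts, class medians and the values of Col14a1 and Col18a1 are therefore also given without it.

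Collagens are triple helices of 3 chains, and each chain has its own gene. Fibrillar collagens (types I, III and V) form the cross-striated fibres of the cardiac interstitium and are made mainly by fibroblasts. Collagen IV forms the network of basement membranes around cardiomyocytes and capillaries. Collagen VI forms beaded filaments between both, FACIT collagens sit on fibril surfaces, and short-chain collagen VIII forms lattices in vessel walls and valves. Chains are hydroxylated and folded in the endoplasmic reticulum, trimmed by propeptidases and cross-linked by lysyl oxidases. The 30 genes comprised 8 fibrillar, 5 basement membrane, 4 beaded-filament, 6 FACIT, 2 short-chain, 2 multiplexin and 2 transmembrane genes and Col28a1.

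Promoter windows show where these genes are started. Each except that of Col4a1 runs from 250 bases before to 50 bases after the RefSeq start of the gene on GRCm38.p6. Col4a1 begins at chr8:11312889 in RefSeq, more than 50 bases from the end of its window. All are written in the direction of the gene. Col1a2, Col3a1 and Col6a1 are shown because the test of the difference between the comparisons called them (the fourth gene it called, Col1a1, has no entry in the promoter table), Col8a2 because its fold change in the AAV comparison was the greatest of the 29, and Col4a1 and Col4a2 because they are the basement membrane pair set against them. Capitals mark matches, on either strand, to the CCAAT box (CCAAT), the GC box (GGGCGG), the TATA box (TATAAA), the cyclic AMP response element (TGACGTCA) or the AP-1 site (TGACTCA).

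Col1a2 (chr6:4505368-4505667, plus strand): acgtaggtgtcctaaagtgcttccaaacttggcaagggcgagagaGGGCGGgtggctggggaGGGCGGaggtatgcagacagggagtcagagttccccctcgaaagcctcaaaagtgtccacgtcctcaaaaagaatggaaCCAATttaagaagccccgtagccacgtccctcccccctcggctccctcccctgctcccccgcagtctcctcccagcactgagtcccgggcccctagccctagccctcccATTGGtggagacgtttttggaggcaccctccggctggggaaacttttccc
Col3a1 (chr1:45311288-45311587, plus strand): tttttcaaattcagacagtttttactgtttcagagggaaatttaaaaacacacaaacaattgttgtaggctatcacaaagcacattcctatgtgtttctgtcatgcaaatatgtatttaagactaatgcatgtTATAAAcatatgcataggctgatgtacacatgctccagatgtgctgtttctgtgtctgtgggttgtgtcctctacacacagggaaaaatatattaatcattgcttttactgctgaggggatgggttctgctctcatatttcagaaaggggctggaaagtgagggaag
Col6a1 (chr10:76725995-76726294, minus strand): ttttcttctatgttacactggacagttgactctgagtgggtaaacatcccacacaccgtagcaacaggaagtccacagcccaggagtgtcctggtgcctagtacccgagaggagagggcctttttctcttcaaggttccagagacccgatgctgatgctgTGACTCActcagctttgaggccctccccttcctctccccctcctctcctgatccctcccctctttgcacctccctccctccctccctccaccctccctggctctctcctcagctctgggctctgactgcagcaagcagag
Col8a2 (chr4:126286544-126286843, plus strand): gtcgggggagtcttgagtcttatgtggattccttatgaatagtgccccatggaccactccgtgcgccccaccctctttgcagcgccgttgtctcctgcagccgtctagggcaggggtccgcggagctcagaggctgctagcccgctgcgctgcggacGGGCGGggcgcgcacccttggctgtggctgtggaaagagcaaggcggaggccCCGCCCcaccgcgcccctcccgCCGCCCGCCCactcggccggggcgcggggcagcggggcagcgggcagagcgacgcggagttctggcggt
Col4a1 (chr8:11312777-11313076, minus strand): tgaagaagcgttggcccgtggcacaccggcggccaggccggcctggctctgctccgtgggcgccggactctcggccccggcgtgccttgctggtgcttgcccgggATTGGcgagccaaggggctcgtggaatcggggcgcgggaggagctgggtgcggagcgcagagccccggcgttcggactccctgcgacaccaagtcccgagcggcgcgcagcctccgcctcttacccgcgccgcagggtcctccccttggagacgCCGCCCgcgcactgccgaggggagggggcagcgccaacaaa
Col4a2 (chr8:11312555-11312854, plus strand): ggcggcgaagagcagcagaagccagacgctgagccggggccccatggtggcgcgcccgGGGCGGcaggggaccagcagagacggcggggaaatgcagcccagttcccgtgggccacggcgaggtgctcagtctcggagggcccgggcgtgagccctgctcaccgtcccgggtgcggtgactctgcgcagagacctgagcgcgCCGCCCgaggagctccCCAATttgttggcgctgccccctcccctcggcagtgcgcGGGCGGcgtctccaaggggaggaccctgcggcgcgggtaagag

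Col1a2 had 2 CCAAT boxes and 2 GC boxes, Col3a1 had 1 TATA box, Col6a1 had 1 AP-1 site and Col8a2 had 4 GC boxes, of which the last pair overlap. Col4a1 and Col4a2 lie head to head on chromosome 8, and their windows share sequence, so a GC box in the shared stretch is counted for both. Over all 32851 RefSeq promoter windows, 37.4% held the CCAAT box, 35.7% the GC box, 13.6% the TATA box, 5.2% the AP-1 site and 1.79% the cyclic AMP response element, which none of these 6 windows held. A match describes letters in this window only.

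All 8 fibrillar genes had positive fold changes in Atf3-/-FS6KD against Atf3+/+FS6KD (background 50.2% of all genes tested), and none passed the test. Col11a1 was among them and passed the filter only through 1 Atf3-/-FS6KD library. All 7 fibrillar genes tested in the AAV comparison had negative fold changes in labelled shAtf3 against labelled shCtrl (background 50.9%), and 4 passed the test (background 0.453% called lower). Among all 30 genes the knockout comparison called 0 (edgeR, adjusted p below 0.05), and the background was 0% of 15592 genes. At an unadjusted p below 0.05, 12 of 30 were higher (background 5.41%) and 0 lower (4.69%). By sign alone 26 were higher (background 50.2%) and 4 lower (49.8%). DESeq2, by contrast, called 5 of them higher (background 0.686%), Col1a1, Col1a2, Col3a1, Col6a1 and Col6a3. Without Atf3-/-FS6KD replicate 1, edgeR again called 0, with 27 genes higher (background 49.6%) and 3 lower by sign, and 10 higher at an unadjusted p below 0.05 (background 5.75%).

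In the AAV comparison 9 of 29 genes were called, all lower in labelled shAtf3 (background 0.539%, with 0.453% lower and 0.0854% higher). These were Col1a1, Col1a2, Col3a1, Col5a1, Col6a1, Col14a1, Col16a1, Col8a2 and Col18a1. By sign 25 of 29 were lower (background 50.9%) and 4 higher (49.1%), and before adjustment 22 passed as lower (7.65%) and 0 as higher (5.05%). The count was 0 without labelled shCtrl replicate 2 or without any 1 of the 3 labelled shAtf3 libraries, 4 without labelled shCtrl replicate 1 and 15 without labelled shCtrl replicate 3. Over all genes the calls went from 82 to between 1 and 5 in the fits with 0, to 38 without labelled shCtrl replicate 1 and to 285 without labelled shCtrl replicate 3 (background 1.88%). The 9 genes kept their negative sign in each of these fits.

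**Figure D1:**
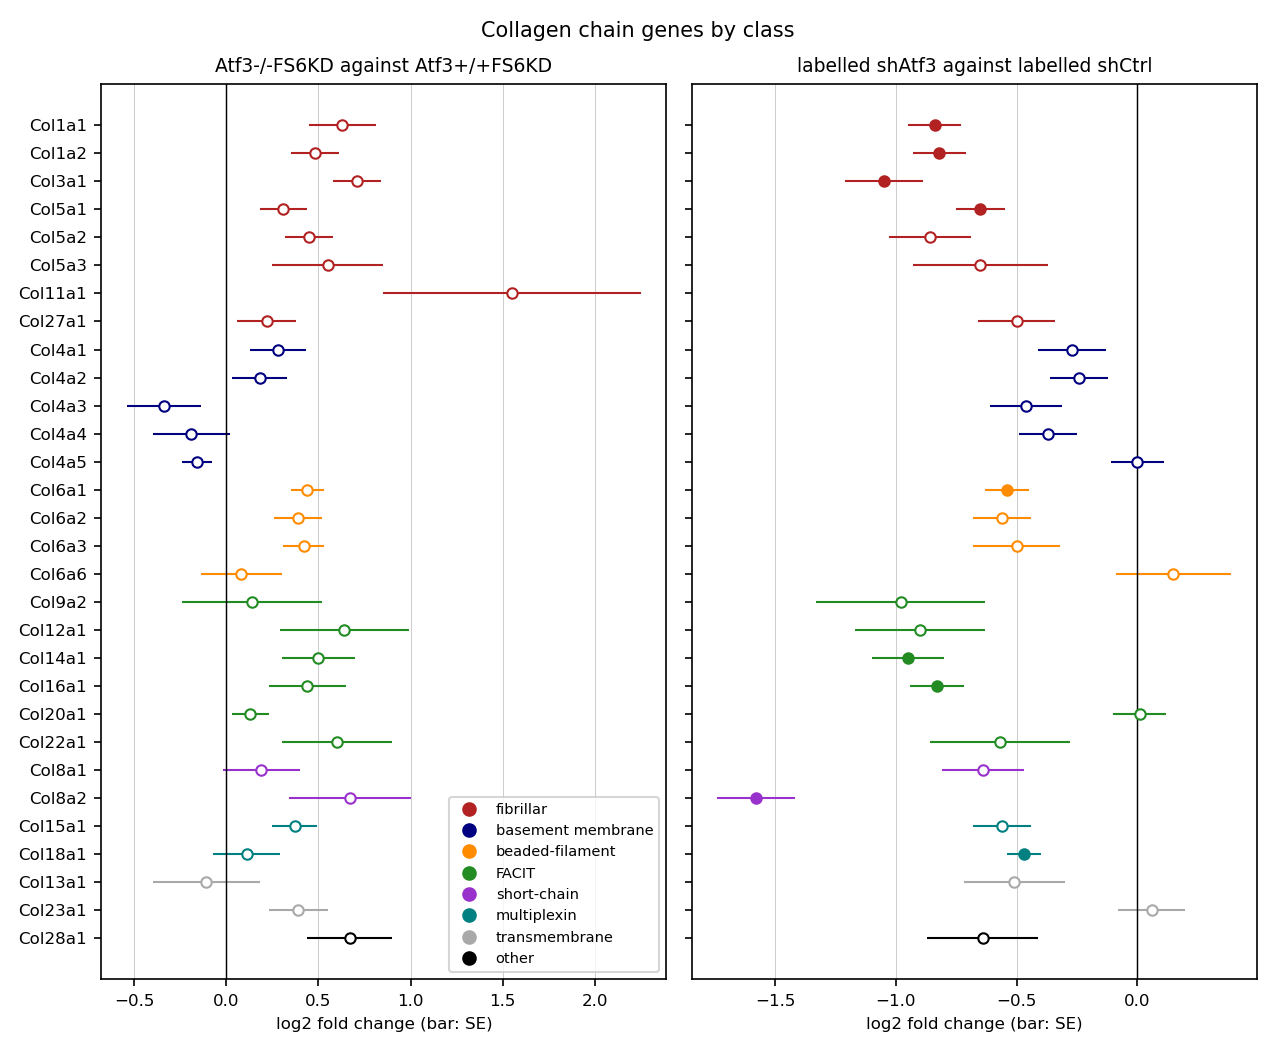
Log2 fold change of each collagen chain gene (horizontal axis, with standard error) in the knockout comparison (left) and the AAV comparison (right), coloured by class; filled points passed an edgeR adjusted p of 0.05. All points on the left are open, 26 of 30 of them above 0, and on the right the 9 filled points lie between -1.58 and -0.47.

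Col3a1 encodes the chain of collagen III, the fine fibre of the interstitium. Atf3+/+FS6KD hearts held 344, 282, 316 and 363 CPM and Atf3-/-FS6KD hearts 580, 468, 649 and 444 CPM, in the order of the replicates, as in all values that follow. All 4 Atf3-/-FS6KD hearts were above all 4 Atf3+/+FS6KD hearts, and the log2 fold change was 0.71 (SE 0.13, adjusted p 0.248). In the AAV hearts it was at 745, 518 and 477 CPM in labelled shCtrl and at 256, 261 and 323 CPM in labelled shAtf3. Those groups did not overlap either, in the opposite direction (log2 fold change -1.05, SE 0.16, adjusted p 0.0328).

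Col1a1 and Col1a2 encode the chains of collagen I, the main load-bearing fibre. Col1a1 was at 100, 87.6, 138 and 114 CPM in Atf3+/+FS6KD and at 155, 149, 233 and 144 CPM in Atf3-/-FS6KD. These groups did not overlap, and replicate 3 was the highest library of each genotype. Col1a2 was at 147, 147, 193 and 151 CPM in Atf3+/+FS6KD and at 212, 223, 275 and 184 CPM in Atf3-/-FS6KD, where 1 Atf3-/-FS6KD heart fell below the highest Atf3+/+FS6KD heart. The log2 fold changes were 0.63 (SE 0.18, adjusted p 0.368) for Col1a1 and 0.48 (SE 0.13, adjusted p 0.344) for Col1a2.

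In the AAV hearts Col1a1 was at 199, 162 and 147 CPM in labelled shCtrl and at 92.6, 87.1 and 103 CPM in labelled shAtf3. Col1a2 was at 316, 267 and 237 CPM in labelled shCtrl and at 152, 142 and 169 CPM in labelled shAtf3. Neither gene overlapped between the groups. Col1a1 fell by 0.84 (SE 0.11) and Col1a2 fell by 0.82 (SE 0.11) on the log2 scale, both with an adjusted p of 0.0293.

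Collagen V nucleates collagen I fibrils. Col5a1, its main chain, was at 47.2, 43.6, 56 and 50.6 CPM in Atf3+/+FS6KD and at 59.5, 56, 77.7 and 52.2 CPM in Atf3-/-FS6KD, and the groups overlapped (log2 fold change 0.31, SE 0.13, adjusted p 0.461). It was at 77.6, 69.8 and 60.2 CPM in labelled shCtrl and at 42, 41.9 and 48.3 CPM in labelled shAtf3, with no overlap (log2 fold change -0.65, SE 0.10, adjusted p 0.0328). Col5a2 had log2 fold changes of 0.45 and -0.86 (adjusted p 0.371 and 0.0799) and Col5a3 of 0.55 and -0.65 (adjusted p 0.569 and 0.376), where the AAV value was -0.21 without labelled shCtrl replicate 1. Col27a1 was at 0.22 and -0.50. Col11a1 had the greatest knockout log2 fold change of the 30, 1.55, with a standard error of 0.70. It passed the filter only through Atf3-/-FS6KD replicate 3 (1.53 CPM), a library of the group where it was higher. Its sign and rank are therefore tied to the filter. Atf3+/+FS6KD hearts held at most 0.641 CPM, and the log2 fold change was 2.63 without Atf3+/+FS6KD replicate 3.

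**Figure D2:**
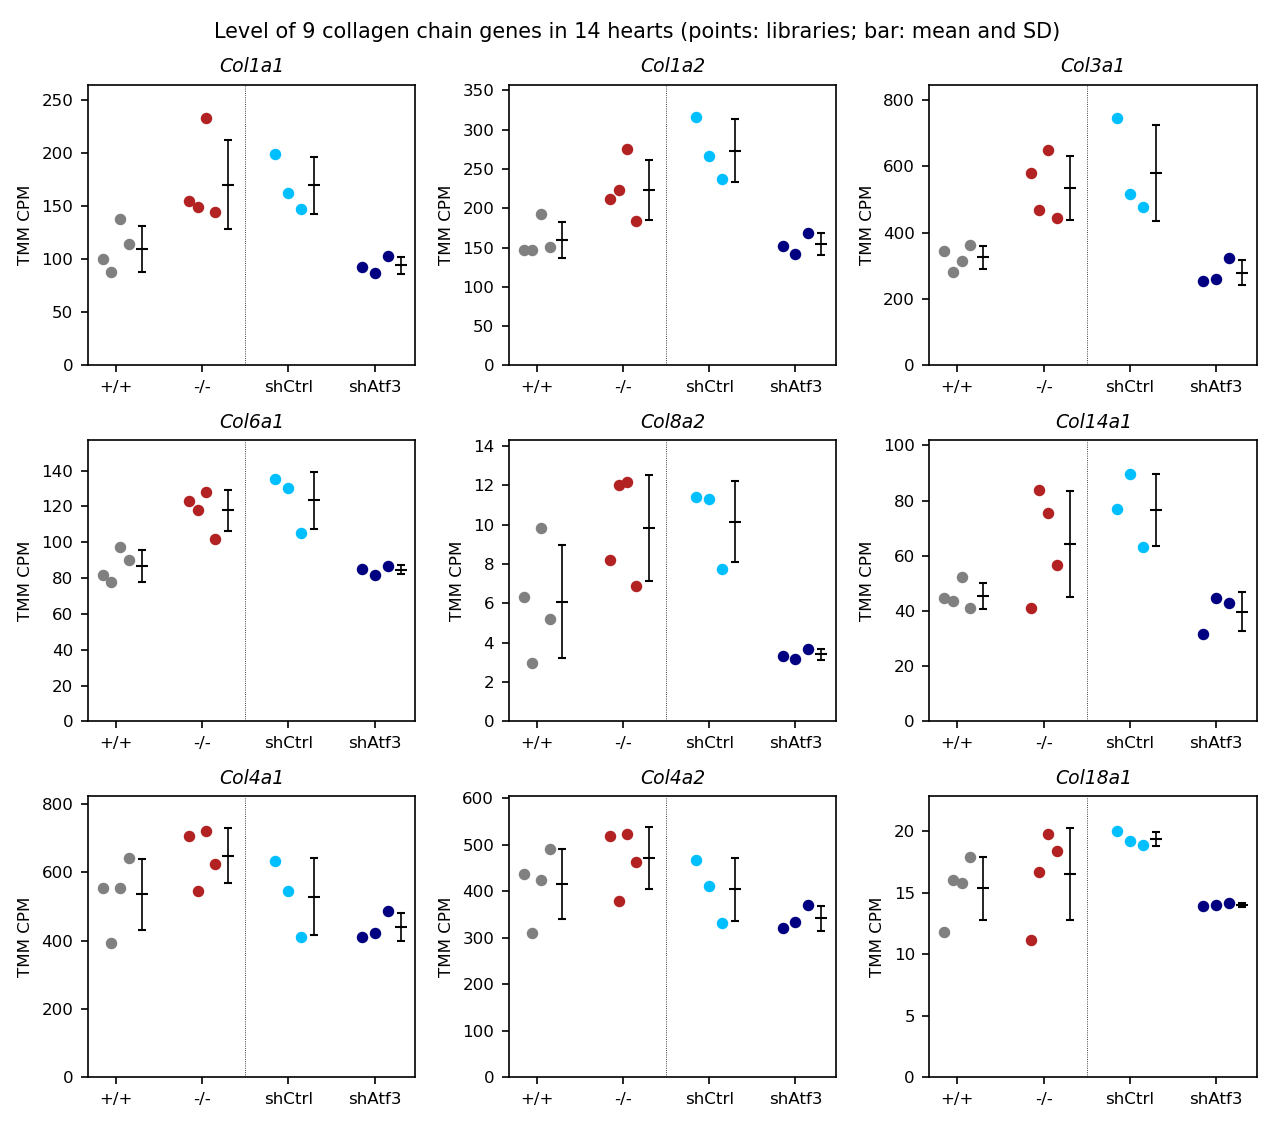
CPM after TMM normalization (vertical axis, from 0) of 9 collagen chain genes in each heart, with mean and SD; the dotted line parts the knockout hearts (left) from the AAV hearts (right). Col1a1, Col3a1 and Col6a1 do not overlap between the groups on either side, whereas Col4a1 and Col4a2 overlap on both.

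None of the 5 basement membrane genes was called in either comparison. The background was 0% of all genes in the knockout and 0.539% in the AAV comparison, so this count does not set the class apart. Their log2 fold changes lay between -0.34 and 0.28 in the knockout hearts and between -0.46 and 0.00 in the AAV hearts. Col4a1 and Col4a2, chains of the collagen IV network found in nearly every basement membrane, were among the most abundant. Col4a1 was at 555, 392, 555 and 642 CPM in Atf3+/+FS6KD and at 707, 545, 720 and 624 CPM in Atf3-/-FS6KD. Col4a2 was at 437, 311, 423 and 491 CPM in Atf3+/+FS6KD and at 519, 380, 522 and 462 CPM in Atf3-/-FS6KD. Both overlapped between the genotypes, with log2 fold changes of 0.28 (SE 0.15, adjusted p 0.563) and 0.18 (SE 0.15, adjusted p 0.699).

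Labelled shCtrl held 632, 546 and 410 CPM of Col4a1 and labelled shAtf3 411, 424 and 486 CPM. For Col4a2 the values were 468, 412 and 332 CPM in labelled shCtrl and 321, 333 and 371 CPM in labelled shAtf3. Labelled shCtrl replicate 3 lay below all labelled shAtf3 hearts for Col4a1 and among them for Col4a2, and neither gene passed the test (Col4a1 -0.27, adjusted p 0.470; Col4a2 -0.24, adjusted p 0.428). Col4a3, Col4a4 and Col4a5, whose chains form a network best known from kidney and inner ear, were lower by sign in Atf3-/-FS6KD, by 0.34, 0.19 and 0.16 on the log2 scale, and none passed the test. The Col4a4 value ranged from -0.46 to 0.21 over the alternative settings, so its sign depended on the setting. In the AAV hearts Col4a3 was at 6.51, 9.78 and 7.82 CPM in labelled shCtrl and at 5.41, 6.43 and 5.7 CPM in labelled shAtf3 (log2 fold change -0.46, SE 0.15, adjusted p 0.261). Col4a4 was at 15, 19 and 14 CPM in labelled shCtrl and at 12.8, 12.6 and 11.9 CPM in labelled shAtf3 (log2 fold change -0.37, SE 0.12, adjusted p 0.244). Neither overlapped between the AAV groups, unlike Col4a1 and Col4a2, and both had an unadjusted p below 0.05. X-linked Col4a5 was at 52.7 CPM in Atf3-/-FS6KD replicate 1 and at 53.6 to 58.1 CPM in the other 3 Atf3-/-FS6KD hearts.

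Beaded-filament Col6a1, Col6a2 and Col6a3 encode the chains of the common collagen VI trimer. Col6a1 was at 81.9, 77.6, 97.3 and 90 CPM in Atf3+/+FS6KD and at 123, 118, 128 and 102 CPM in Atf3-/-FS6KD, without overlap (log2 fold change 0.44, SE 0.09, adjusted p 0.253). Col6a2 was at 83.5, 79.7, 113 and 108 CPM in Atf3+/+FS6KD and at 128, 117, 148 and 112 CPM in Atf3-/-FS6KD, and the groups overlapped. Col6a3 was at 39.5, 39.7, 46.2 and 54.8 CPM in Atf3+/+FS6KD and at 65.2, 58.2, 64 and 54.8 CPM in Atf3-/-FS6KD, where the lowest Atf3-/-FS6KD heart and the highest Atf3+/+FS6KD heart differed by less than the rounding. Log2 fold changes were 0.39 for Col6a2 (adjusted p 0.400) and 0.42 for Col6a3 (adjusted p 0.325).

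Of the 3 genes, Col6a1 alone passed the test in the AAV hearts. It was at 135, 130 and 105 CPM in labelled shCtrl and at 85.2, 81.9 and 86.8 CPM in labelled shAtf3 (log2 fold change -0.54, SE 0.09, adjusted p 0.0463). Col6a2 was at 153, 141 and 110 CPM in labelled shCtrl and at 100, 80.5 and 92.7 CPM in labelled shAtf3 (-0.56, adjusted p 0.116). Col6a3 was at 79.4, 61.2 and 44.5 CPM in labelled shCtrl and at 42, 39.5 and 49.5 CPM in labelled shAtf3 and overlapped (-0.50, adjusted p 0.304). Labelled shCtrl had its lowest value of all 3 genes in replicate 3. Col6a6, a minor chain, was at 0.08 in the knockout and 0.15 in the AAV comparison.

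Among the FACIT genes, Col14a1, which encodes a fibril-surface collagen of fibroblasts, was the most abundant. It was at 44.7, 43.5, 52.4 and 41.2 CPM in Atf3+/+FS6KD and at 41.2, 83.9, 75.6 and 56.6 CPM in Atf3-/-FS6KD. Atf3-/-FS6KD replicate 1, the heart with almost no Xist, was level with the lowest Atf3+/+FS6KD heart to within rounding, and the other 3 lay above all Atf3+/+FS6KD hearts. The log2 fold change was 0.50 (SE 0.20, adjusted p 0.453), and 0.66 without that heart. Col14a1 was at 76.8, 89.5 and 63.3 CPM in labelled shCtrl and at 31.7, 44.7 and 42.8 CPM in labelled shAtf3 (log2 fold change -0.95, SE 0.15, adjusted p 0.0372).

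Col16a1, another fibril-associated chain, was at 8.69, 7.28, 12.4 and 7.53 CPM in Atf3+/+FS6KD and at 12.5, 11.1, 16.1 and 9.29 CPM in Atf3-/-FS6KD and overlapped (log2 fold change 0.44, adjusted p 0.520). It was at 16.3, 16.8 and 13.4 CPM in labelled shCtrl and at 8.97, 7.97 and 9.3 CPM in labelled shAtf3 and did not overlap (log2 fold change -0.83, SE 0.11, adjusted p 0.0293). An alternate-locus copy of Col16a1 held 35.2% to 47.8% of its reads in the knockout libraries and 36.1% to 37.2% in the AAV libraries, so its level is uncertain. Col12a1, Col22a1, Col9a2 and Col20a1 did not pass either test, and Col20a1 stayed between 5.78 and 8.44 CPM in all 14 hearts.

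Short-chain Col8a2, a chain of collagen VIII, had the greatest fold change of the 29 genes in the AAV comparison. Labelled shCtrl held 11.4, 11.3 and 7.77 CPM and labelled shAtf3 3.34, 3.17 and 3.7 CPM, a 3-fold difference with no overlap (log2 fold change -1.58, SE 0.16, adjusted p 0.0137). In the knockout hearts it was at 6.35, 2.95, 9.84 and 5.22 CPM in Atf3+/+FS6KD and at 8.22, 12, 12.2 and 6.88 CPM in Atf3-/-FS6KD, with overlap (log2 fold change 0.67, SE 0.33, adjusted p 0.532). Its partner Col8a1, the more abundant chain, was at 72.3, 58.2, 109 and 70.3 CPM in Atf3+/+FS6KD and at 80.7, 99, 110 and 64.8 CPM in Atf3-/-FS6KD (0.19, adjusted p 0.783). Col8a1 was at 173, 121 and 102 CPM in labelled shCtrl and at 90.7, 78.8 and 84.8 CPM in labelled shAtf3, without overlap, and did not pass the test (-0.64, adjusted p 0.168).

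Multiplexins are basement membrane-associated collagens. Col15a1 was at 92.5, 83.9, 112 and 114 CPM in Atf3+/+FS6KD and at 131, 124, 149 and 115 CPM in Atf3-/-FS6KD, without overlap (log2 fold change 0.37, adjusted p 0.392). It was at 134, 118 and 95.6 CPM in labelled shCtrl and at 72.5, 75.3 and 87.4 CPM in labelled shAtf3, also without overlap (-0.56, adjusted p 0.0992). Col18a1, the source of endostatin, had narrow groups in the AAV hearts, with 20, 19.2 and 18.9 CPM in labelled shCtrl and 13.9, 14 and 14.2 CPM in labelled shAtf3, and passed the test (-0.47, SE 0.07, adjusted p 0.0299). In the knockout hearts Col18a1 was at 11.8, 16, 15.8 and 17.9 CPM in Atf3+/+FS6KD and at 11.2, 16.7, 19.8 and 18.4 CPM in Atf3-/-FS6KD (0.11, adjusted p 0.868; 0.25 without Atf3-/-FS6KD replicate 1). Replicate 1 was the lowest library of both genotypes. Transmembrane Col13a1 and Col23a1 and Col28a1 passed neither test.

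By class, the median log2 fold change in the knockout comparison was 0.52 for fibrillar, -0.16 for basement membrane, 0.41 for beaded-filament, 0.47 for FACIT and 0.43 for short-chain genes, against 0.00 for all genes tested. Without Atf3-/-FS6KD replicate 1 these were 0.46, -0.11, 0.39, 0.52 and 0.49. The basement membrane median was 0.21 in the shallower replicates 1 and 2 alone, so its sign depended on the libraries. In the AAV comparison the medians were -0.82, -0.27, -0.52, -0.86 and -1.11 in the same order. Classes are lists of related genes and were described without a test.

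Summed over class members, Atf3+/+FS6KD hearts held 730.9 ± 71.5 CPM (SD, n = 4) of fibrillar transcripts and Atf3-/-FS6KD hearts 1110 ± 196 CPM (n = 4). Labelled shCtrl hearts held 1220 ± 255 CPM (n = 3) and labelled shAtf3 hearts 645.9 ± 66.6 CPM (n = 3). Neither pair of groups overlapped in this sum. Basement membrane transcripts were at 1038 ± 182 CPM and 1196 ± 144 CPM in the knockout hearts and at 1015 ± 178 CPM and 857.7 ± 69.4 CPM in the AAV hearts, and both pairs overlapped. The knockout sum was higher where the median of the same genes was negative, because Col4a1 and Col4a2 make up most of the sum. All 30 genes together took 0.223% of counts in Atf3+/+FS6KD, 0.302% in Atf3-/-FS6KD, 0.300% in labelled shCtrl and 0.195% in labelled shAtf3.

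**Figure D3:**
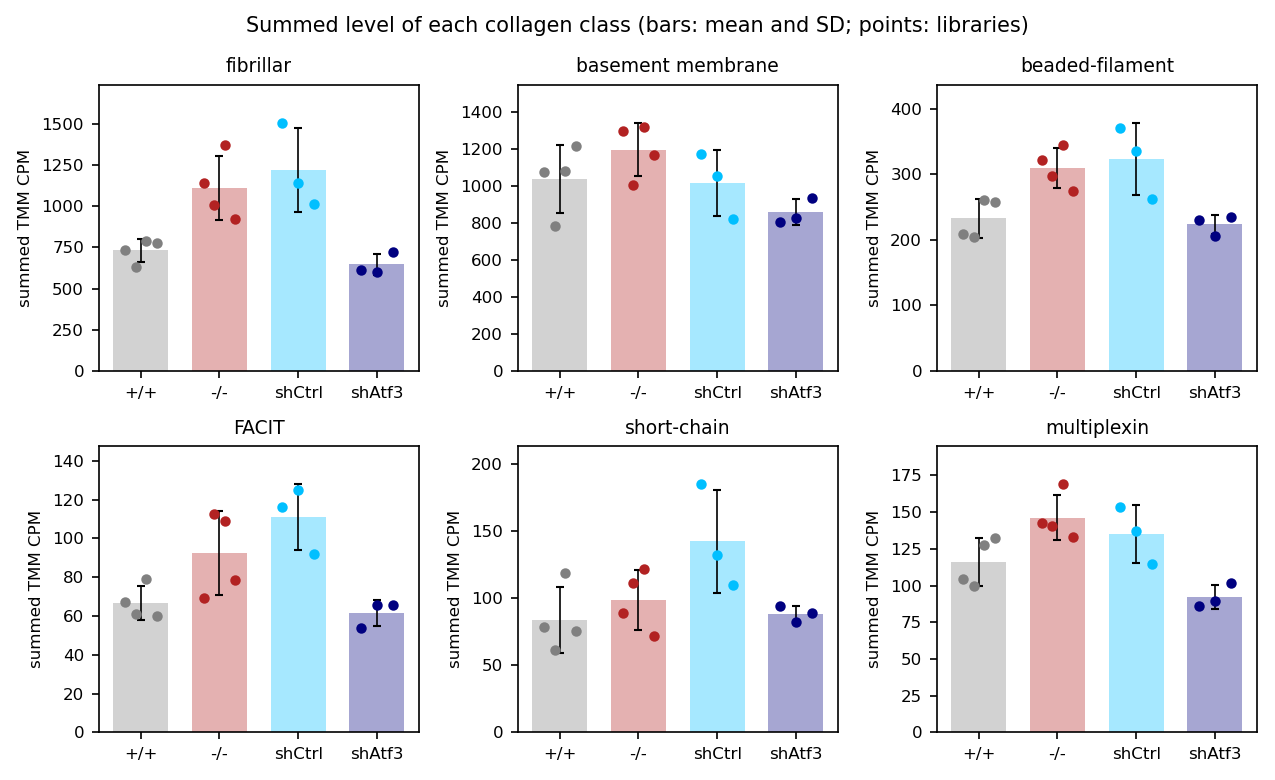
Summed CPM of the members of 6 collagen classes (vertical axes, from 0) in each heart, with bars for the mean and SD. Fibrillar points separate in both experiments, at 630.2 to 788.9 against 922.5 to 1370 CPM and at 1014 to 1505 against 600.5 to 722.4 CPM, while basement membrane points overlap in both.

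Single libraries stood out across the genes. Atf3-/-FS6KD replicate 3 was the highest knockout library for 16 of 30 genes, and Atf3+/+FS6KD replicate 2 the lowest for 17. Labelled shCtrl replicate 1 was the highest AAV library for 18 of 29 genes, and labelled shAtf3 replicate 2 the lowest for 14. Comparing genes per kilobase of transcript, Col4a1 (81 CPM per kb), Col4a2 (64.4) and Col3a1 (58.6) led in Atf3+/+FS6KD, ahead of Col1a2 (29.9), Col6a1 (21.1), Col6a2 (20.6), Col15a1 (19.5) and Col1a1 (18.5). The order in labelled shCtrl was led by Col3a1 (104), Col4a1 (80) and Col4a2 (62.6).

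The knockout and AAV log2 fold changes, with the AAV labels as given, differed for Col3a1, Col1a1, Col1a2 and Col6a1. The difference of log2 fold changes, knockout minus AAV, was 1.76 (SE 0.23, adjusted p 0.0141) for Col3a1, 1.47 (SE 0.25, adjusted p 0.0345) for Col1a1, 1.30 (SE 0.19, adjusted p 0.0195) for Col1a2 and 0.98 (SE 0.14, adjusted p 0.0195) for Col6a1. They were 4 of 30 tested (background 0.166%, with 0.153% positive and 0.0127% negative). By sign the difference was positive for 28 of 30 (50.1%) and negative for 2 (49.9%), and before adjustment 20 passed as positive (9.41%) and 0 as negative (7.57%). None of the 5 basement membrane genes passed this test, which at a background of 0.166% does not set them apart. With the AAV labels exchanged, an alternative chosen after seeing the data, the difference was -0.34 (SE 0.23) for Col3a1, -0.21 (SE 0.25) for Col1a1, -0.34 (SE 0.19) for Col1a2 and -0.10 (SE 0.14) for Col6a1. In that fit edgeR called 0 of 30 genes and 0 of all 15708, and at an unadjusted p below 0.05 it had 1 of the 30, Col4a3, and 643 of all genes. With the labels as given, the count was 0 without labelled shAtf3 replicate 1 or 2, 1 without labelled shCtrl replicate 1 or 2, and 8 without labelled shCtrl replicate 3. Among the knockout libraries, leaving out Atf3-/-FS6KD replicate 1, 2 or 4 gave 5, 2 or 10, and leaving out Atf3+/+FS6KD replicate 3 gave 11. All genes called changed too, from 26 with all libraries to between 0 and 168 with 1 left out.

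Of the 29 genes tested in both comparisons, 22 were higher in the knockout and lower in the AAV comparison (background 32%), and 1, Col4a5, was the reverse with an AAV value of 0.00 (background 31.4%). Col3a1, Col15a1, Col6a1 and Col1a1 were higher in Atf3-/-FS6KD and lower in labelled shAtf3 with no overlap in either comparison (4 of 29; background 0.735%). With the AAV labels exchanged, the same 22 genes, and the same 32% of all genes, would be higher in both comparisons, so these counts rest on the labels. Groups did not overlap in the knockout comparison for 5 of 30 genes (background 5.71%), all higher (3.08%) and none lower (2.63%). In the AAV comparison this held for 19 of 29 genes (background 18.4%), all lower (9.94%) and none higher (8.48%). Without Atf3-/-FS6KD replicate 1, 6 of 30 genes did not overlap and were higher (background 5.49%).

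**Figure D4:**
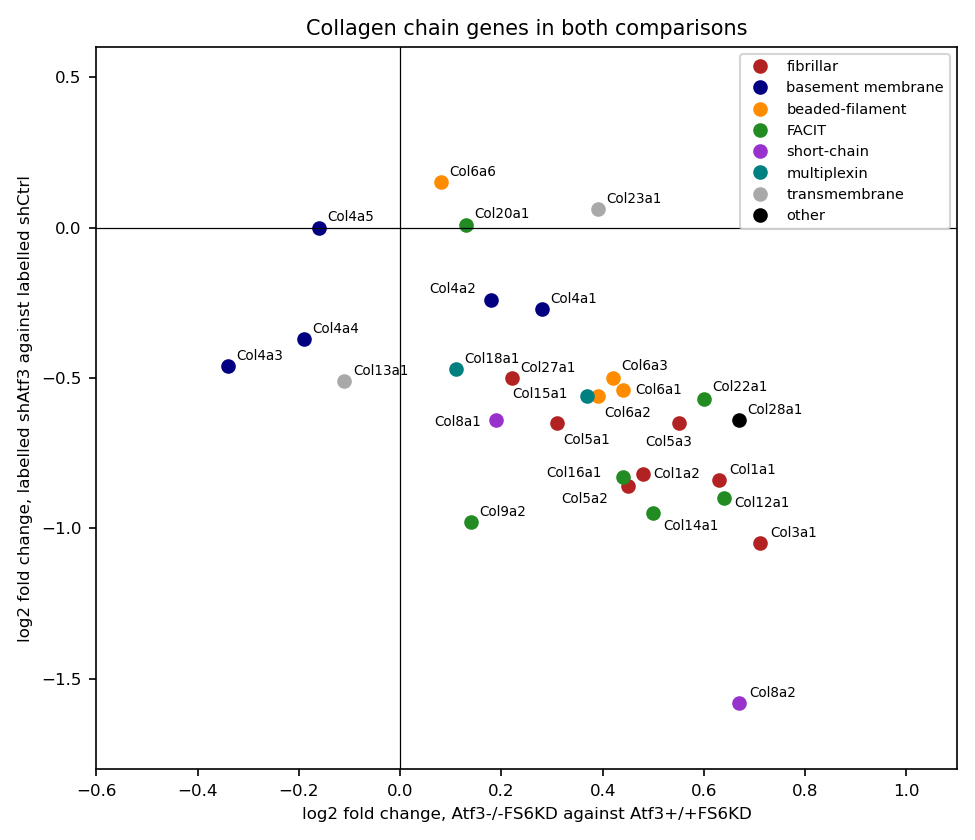
Log2 fold change of 29 collagen chain genes in the knockout comparison (horizontal axis) against that in the AAV comparison (vertical axis), coloured by class. The 22 genes in the lower right were higher in Atf3-/-FS6KD and lower in labelled shAtf3, and 3 of the 5 basement membrane genes lie left of 0.

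Ratios between chains were compared within each heart over 13 gene pairs in both comparisons, 26 exact two-sided permutation tests in all. None passed after adjustment, and none could. The smallest p that the design allows is 0.0286 for 4 against 4 and 0.10 for 3 against 3. Both are too large for any pair to pass after adjustment over 26 tests. The adjusted values therefore cannot decide whether a ratio changed. Col1a1 per kilobase was 0.616 times Col1a2 in Atf3+/+FS6KD and 0.681 times in Atf3-/-FS6KD, and 0.558 and 0.551 times in labelled shCtrl and labelled shAtf3. For collagen VI, Col6a1 was at 1.03 to 1.06 times Col6a2 in all 4 groups.

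Between classes, the log2 ratio of Col1a1 to Col4a1 was lower in labelled shAtf3 than in labelled shCtrl by 0.59 with no overlap (exact permutation p 0.10, adjusted 0.371), and higher in Atf3-/-FS6KD by 0.33 with overlap (exact permutation p 0.143). Col5a1 was at 0.32 times Col1a1 in Atf3+/+FS6KD and at 0.256 times in Atf3-/-FS6KD, with no overlap (exact permutation p 0.0286, adjusted 0.371). In the AAV hearts Col5a1 was at 0.29 times Col1a1 in labelled shCtrl and at 0.33 times in labelled shAtf3, with no overlap in the opposite direction (exact permutation p 0.10, adjusted 0.371). The ratio of Col4a1 to Col4a2 was 1.25 in Atf3+/+FS6KD and 1.35 in Atf3-/-FS6KD, with no overlap (exact permutation p 0.0286, adjusted 0.371), and 1.27 and 1.26 in the AAV groups.

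**Figure D5:**
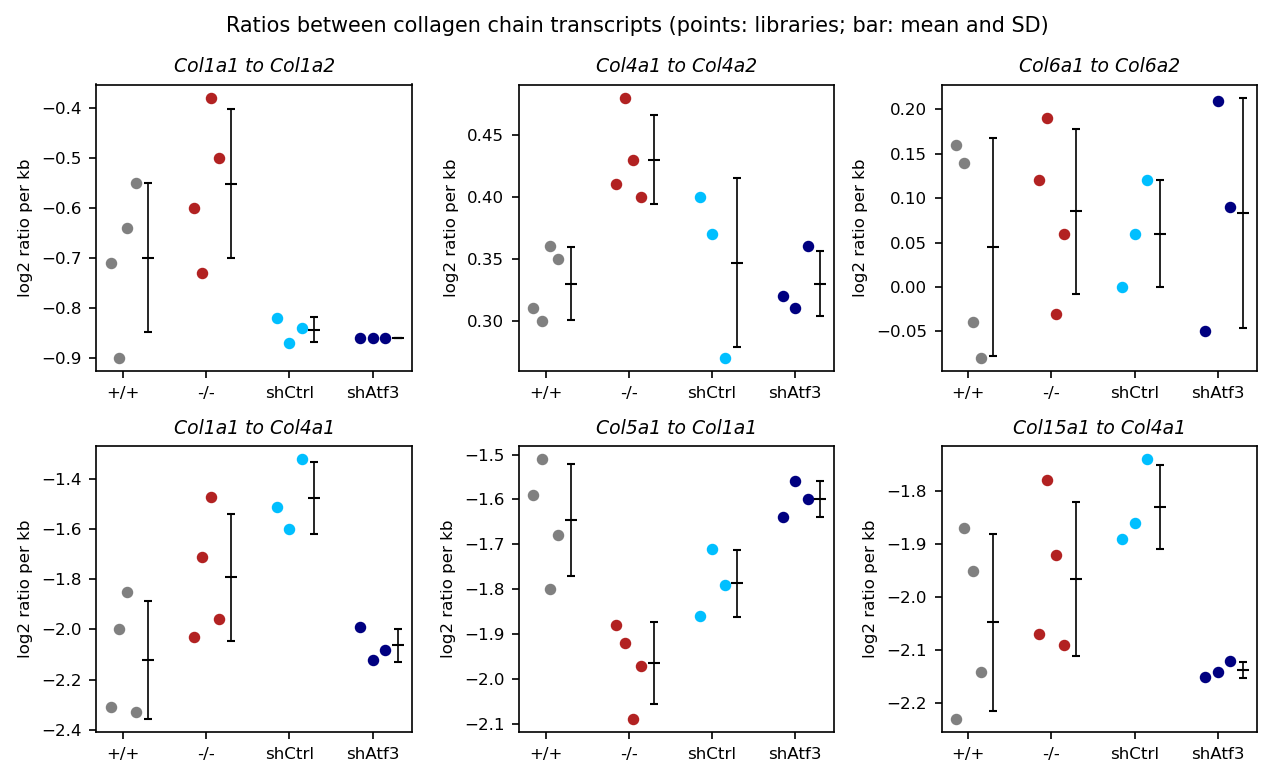
Log2 ratio per kilobase between 6 pairs of collagen chain transcripts (vertical axes) in each heart, with mean and SD. Col1a1 to Col4a1 and Col15a1 to Col4a1 separate labelled shCtrl from labelled shAtf3, and Col4a1 to Col4a2 separates the 2 genotypes. Col5a1 to Col1a1 separates the groups in both experiments, in opposite directions. With 26 tests and these group sizes, no pair could pass after adjustment.

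In whole hearts, fewer cells of a type and less RNA per cell cannot be told apart, and markers of fibroblasts had the signs of most collagen genes. All 10 fibroblast markers were higher by sign in Atf3-/-FS6KD (median log2 fold change 0.27, 0 called; background 50.2% higher) and all 10 lower in labelled shAtf3 (median -0.43; background 50.9% lower and 0.453% called lower), where Dpt, a collagen-binding matrix protein, was called (-0.47, SE 0.07). Their summed level was 2270 to 3350 CPM in Atf3+/+FS6KD and 2850 to 3440 CPM for Atf3-/-FS6KD, and 3000 to 3880 CPM in labelled shCtrl and 2510 to 2710 CPM in labelled shAtf3. Of 8 markers of activated fibroblasts, 6 were higher by sign in Atf3-/-FS6KD (median 0.66) and 8 lower in labelled shAtf3 (median -1.23), of which Ltbp2 and Postn were called. The 2 lower by sign in Atf3-/-FS6KD were Acta2 (log2 fold change -1.07, SE 0.49) and Fap (-0.13, SE 0.16). The knockout median of the 8 was 1.09 in replicates 1 and 2 alone and 0.27 in replicates 3 and 4 alone. The 8 summed to 341 to 548 and 285 to 566 CPM in Atf3+/+FS6KD and Atf3-/-FS6KD, and to 567 to 1020 and 369 to 429 CPM in labelled shCtrl and labelled shAtf3.

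Comp and Fmod were called lower among 6 valve or cartilage-like markers tested in the AAV comparison (background 0.453%; median -0.91; knockout median 0.34), whose list of 10 summed to 93.2 to 147 CPM in labelled shCtrl and 55.3 to 69 CPM in labelled shAtf3. The 8 endothelial markers had medians of 0.09 and 0.03 and the 8 mural cell markers of 0.09 and -0.06, with 0 called. The 8 macrophage markers had medians of 0.21, with 7 higher by sign (background 50.2%), and -0.17, with 6 lower (background 50.9%), and 0 called. They summed to 185 to 238 CPM in Atf3+/+FS6KD and 193 to 290 CPM in Atf3-/-FS6KD. In the AAV hearts they summed to 288 to 309 CPM in labelled shCtrl and 267 to 276 CPM in labelled shAtf3. Those AAV sums did not overlap, and neither did 18.4% of all single genes in that comparison. Of 8 cardiomyocyte markers, 7 were lower by sign in Atf3-/-FS6KD (median -0.16, background 49.8% lower). All 8 were higher by sign in labelled shAtf3 (median 0.11, background 49.1% higher), and 0 were called in each comparison. None of these markers was at 0 in every library. The part of any cell type in the collagen values was not tested.

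Genes that process collagen were read from a list of 32. In the knockout comparison 21 of 31 tested were higher (background 50.2%) and 0 were called (median log2 fold change 0.14), and Lox, a cross-linking lysyl oxidase, had means of 7.05 ± 2.6 and 15.4 ± 3.48 CPM in the 2 genotypes (SD, n = 4; log2 fold change 1.11, SE 0.28). In the AAV comparison 27 of 30 were lower (background 50.9%) and 4 were called lower (background 0.453%). Adamts2, the procollagen N-proteinase, fell by 0.83 (SE 0.08), Loxl2, a lysyl oxidase, fell by 0.65 (SE 0.10), and P3h3, of the prolyl 3-hydroxylase family, fell by 0.58 (SE 0.08) on the log2 scale. Median log2 fold changes by step were 0.11 and -0.14 for hydroxylation and folding, 0.17 and -0.39 for propeptide removal and 0.41 and -0.63 for cross-linking in the knockout and AAV comparisons. Collagen receptors and uptake genes had medians of 0.06 and -0.21, and Mrc2, an endocytic collagen receptor, was called lower (-0.60, SE 0.09).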

How the data were processed

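Total RNA came from whole hearts and was made into stranded mRNA libraries, which were sequenced from 1 end in the knockout experiment. For all libraries the submitters' processing notes name GRCm38.p6 and featureCounts 2.0.0, and the aligner is not given in the sources used here. The authors' deposited tables hold estimated counts per gene and library, not normalized; 19.3% to 24.4% of values were not whole, and they were rounded before each test. The design had assumed whole counts, and the same tests were kept. All sample columns were used (0 left out). In total 2379 rows are copies of genes on alternate loci, and 5 collagen copy rows were dropped.

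Groups follow the labels. Genes above 1 CPM in at least 1 library were tested in R 4.3.3 by edgeR 4.0.16 (TMM scaling, two-sided quasi-likelihood F-test, Benjamini-Hochberg over all genes, threshold 0.05), the difference between experiments as an interaction over 14 libraries. CPM are TMM-normalised unless called raw. Levels per kilobase used the longest protein-coding transcript of GENCODE with a consensus coding sequence (CCDS) tag. Where no transcript had the tag, the longest protein-coding one was used. Ratios were log2 with a prior count of 2. Alternatives included DESeq2 1.42.0, other filters, depth batch, replicate block, leaving out each library and, added after seeing the data, the AAV labels exchanged. Tested on simulated counts, the knockout fit recovered 73.4%, 92.8% and 100% of genes changed 1.5-fold, 2-fold and 4-fold among 15393 genes, the AAV fit 78.9%, 91% and 100% among 15077, and the difference 33.3%, 67.2% and 98.5% among 15522. Changes were planted only in genes above a mean log2 CPM of 1, and each gene was drawn on its own, without spread shared across a heart. False calls numbered 12 in the knockout fit, 15 in the AAV fit and 11 in the difference. The shares recovered hold for those settings and do not give the power on the real counts. The biological coefficient of variation was 16.4% in the knockout and 9.37% in the AAV experiment. The edgeR p-values set each group difference against a spread between hearts that was moderated across genes. In the test of the difference, that spread was shared by both experiments. Values in every library are given for 13 fixed genes, every called gene and the 3 smallest knockout p. From other lists up to 3 genes with the smallest p are named. Further called genes, Acta2, Fap and the AAV values of Col4a3 and Col4a4 by library were added after their values were seen. The genes, classes and lists were chosen with earlier results of these data known. Promoters were matched by symbol in RefSeq for GRCm38.p6. Figures were drawn with matplotlib.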

Additional observations from a re-analysis of the deposited data

Results flagged for a closer look

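In 4 of 60 tests of a group of 4 hearts, 1 heart stood apart from the other 3 by Dixon's test, where chance gives about 1 in 20. Col1a1 was at 233 CPM in Atf3-/-FS6KD replicate 3, against 144 to 155 CPM in the other Atf3-/-FS6KD hearts. Col1a2 was at 193 CPM in Atf3+/+FS6KD replicate 3, against 147 to 151 CPM. Col4a4 was at 12.1 CPM in Atf3-/-FS6KD replicate 1, the heart with almost no Xist, against 15.3 to 15.5 CPM. Col23a1, which encodes a transmembrane collagen, was at 3.02 CPM in Atf3-/-FS6KD replicate 2, against 3.8 to 3.91 CPM. Groups of 3 were not examined in this way.

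The knockout and AAV effects differed by the interaction test in edgeR for Col3a1 (1.76 on the log2 scale), Col1a1 (1.47), Col1a2 (1.30) and Col6a1 (0.98). The direction of the AAV effect is conditional on its labels. With the AAV labels exchanged, no gene passed, and the differences were -0.34 for Col3a1, -0.21 for Col1a1, -0.34 for Col1a2 and -0.10 for Col6a1. The way Atf3 was targeted cannot be told apart from other differences between the experiments.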

How the results depend on the processing

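With DESeq2 the knockout comparison called 5 collagen genes in place of 0 (208 of all genes), and every edgeR fit of it called 0 collagen genes. The AAV count of 9 was 14 with no filter on low counts (304 of all genes against 82) and ranged from 0 to 15 over fits that left out 1 library. The difference count of 4 was 11 with library size alone, a scaling that moved the median of all genes by 0.11, 9 with no filter, 14 with DESeq2 and 7 with depth batch as a term (205, 61, 669 and 54 of all genes against 26), and ranged from 0 to 11 with 1 library left out. With the AAV labels exchanged, added after seeing the data, it was 0, and the difference turned from positive to negative for 22 of 30 genes (4012 of all 15708). Of the genes chosen by the naming rule these were Col1a1 (-0.21), Col1a2 (-0.34), Col3a1 (-0.34), Col5a1 (-0.34), Col4a2 (-0.06), Col6a1 (-0.10), Col6a2 (-0.17), Col6a3 (-0.08), Col14a1 (-0.44), Col16a1 (-0.38), Col8a1 (-0.45), Col8a2 (-0.92), Col15a1 (-0.20) and Col18a1 (-0.36). The cause of the other changes was not tested.

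Same-numbered libraries correlated in their deviations from the group mean at 0.18, 0.09, 0.03 and 0.15 in the knockout and -0.04, 0.17 and 0.06 in the AAV experiment, so not every pair was over 0.1 and the numbers were not taken to pair the libraries, although replicates 3 and 4 of both genotypes share greater depth. Libraries with unlike numbers correlated at -0.32 to 0.24 in the knockout and -0.22 to 0.16 in the AAV experiment. The numbers are those of the labels, and the column names of the knockout counts number some libraries otherwise. With the replicate block by these numbers, the AAV count was 1 (Col8a2, 20 of all genes), the knockout count 0 and the difference count 6 (54 of all genes).

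Within depth batches, the knockout median of basement membrane genes was 0.21 in replicates 1 and 2 alone, and that of beaded-filament genes was 0.59 there and 0.27 in replicates 3 and 4 alone. With 1 library left out, the AAV median ranged from -0.42 to -0.12 for basement membrane and from -0.88 to -0.68 for FACIT genes. The mean of the FACIT genes was -0.70 in place of their median of -0.86. Reversed signs were seen for Col8a1 (-0.04) and Comp (-0.28) in knockout replicates 3 and 4 alone, for Comp without Atf3-/-FS6KD replicate 3 (-0.04, highest 0.70 over fits without 1 library), for the knockout log2 ratio of Col18a1 to Col4a1 without Atf3-/-FS6KD replicate 1 (0.02, lowest -0.35) and for the AAV log2 ratio of Col14a1 to Col1a1 without labelled shCtrl replicate 2 or labelled shAtf3 replicate 1 (0.03 each, lowest -0.26). Among genes not called, signs also changed under some settings for Col4a4, Col6a6, Col9a2 and Col13a1 in the knockout comparison, for Col4a5, Col20a1, Col6a6 and Col23a1 in the AAV comparison and for Col4a3 and Col6a6 in the difference. A permutation test of 3 against 3 hearts cannot pass the threshold, and neither could one of 4 against 4 after adjustment over the 26 tests. Genes near 1 CPM rest on few counts.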
